A study of Mus musculus with 24 samples.

Results

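Cell cycle and mitosis genes were followed as a set of 34 genes in a mouse study of skin injected with LL37, the human cathelicidin peptide that is used to bring on rosacea-like skin inflammation. The set was chosen by gene symbol, from members known for DNA replication or for mitosis, and all 34 were found among the 45777 genes of the deposited table. Polyadenylated RNA was sequenced in 24 libraries, 6 each of model skin, control skin, model dorsal root ganglion (DRG) and control DRG. The animals were female BALB/c mice, 6 weeks old. Per the series description, the model received LL37 (320 µM, 40 µL) into the skin 2 times a day for 2 days, gabapentin (100 mg/kg, by mouth, 2 times a day) was given from day 3, and DRG was collected on day 4. No label states which libraries come from animals given gabapentin, or what the control animals received, so the groups are called model and control here as the labels have them. The labels give replicate numbers and no animal or pool, so the p-values below measure the spread between these libraries.

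A dividing cell first copies its DNA in S phase and then separates the copies in mitosis. Genes for the first step are largely switched on by E2F factors, and genes for the second by a complex that binds CHR elements (cell cycle genes homology regions) next to CCAAT boxes bound by NF-Y, with FOXM1 taking part. Adult skin holds dividing cells in the basal epidermis and the growing hair follicle. Sensory neurons of the DRG do not divide, and cycling cells of a ganglion sample can be glia, vessel cells, blood cells or cells of attached tissue. Mki67 and Top2a are widely used marks of proliferation because their RNA is high from S phase to mitosis and low in resting cells. In bulk tissue, fewer cycling cells and less of the RNA per cell cannot be told apart.

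The promoters of 6 members are shown as examples from both phases. Each is the RefSeq window (GRCm38.p6) of 250 bases before to 50 after an annotated start of the gene, written 5′ to 3′ along the gene's strand. For Mki67, Top2a and Mcm5 this start is not the outermost base of the gene's span. Capitals mark 3 motifs found on either strand, namely CHR elements, CCAAT boxes and E2F motifs, and motifs may share bases. The CHR letters searched were TTTGAA and also TTCGAA. The E2F letters searched were TTGGCGC, the variant TTCCCGC, the variant TTCGCGC and the variant TTGCCGC. The box was searched as CCAAT itself. Ccnb2 (gene ID 12442, chr9:70421505-70421804, minus strand), Top2a (gene ID 21973, chr11:99024140-99024439, minus strand), Mki67 (gene ID 17345, chr7:135716330-135716629, minus strand) and Cdc20 (gene ID 107995, chr4:118437294-118437593, minus strand) act in G2 and mitosis. Mcm5 (gene ID 17218, chr8:75109259-75109558, plus strand) and Pcna (gene ID 18538, chr2:132253131-132253430, minus strand) act in S phase.
Ccnb2: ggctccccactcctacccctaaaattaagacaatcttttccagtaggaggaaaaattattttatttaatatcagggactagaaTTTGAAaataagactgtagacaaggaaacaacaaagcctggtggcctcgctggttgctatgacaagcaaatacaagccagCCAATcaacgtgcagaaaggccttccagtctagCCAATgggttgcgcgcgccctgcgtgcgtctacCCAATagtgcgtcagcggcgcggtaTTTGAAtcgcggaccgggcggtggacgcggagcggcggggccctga
Top2a: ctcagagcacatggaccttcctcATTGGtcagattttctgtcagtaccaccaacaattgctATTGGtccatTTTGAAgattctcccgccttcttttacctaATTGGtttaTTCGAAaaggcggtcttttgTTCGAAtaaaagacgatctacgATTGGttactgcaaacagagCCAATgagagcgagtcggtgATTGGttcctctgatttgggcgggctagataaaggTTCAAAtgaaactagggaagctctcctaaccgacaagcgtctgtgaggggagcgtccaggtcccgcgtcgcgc
Mki67: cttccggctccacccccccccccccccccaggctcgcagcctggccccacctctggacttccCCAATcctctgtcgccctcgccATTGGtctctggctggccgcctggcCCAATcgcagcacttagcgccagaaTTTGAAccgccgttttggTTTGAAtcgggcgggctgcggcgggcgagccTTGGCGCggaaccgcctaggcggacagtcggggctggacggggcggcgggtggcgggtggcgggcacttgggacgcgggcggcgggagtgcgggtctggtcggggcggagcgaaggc
Cdc20: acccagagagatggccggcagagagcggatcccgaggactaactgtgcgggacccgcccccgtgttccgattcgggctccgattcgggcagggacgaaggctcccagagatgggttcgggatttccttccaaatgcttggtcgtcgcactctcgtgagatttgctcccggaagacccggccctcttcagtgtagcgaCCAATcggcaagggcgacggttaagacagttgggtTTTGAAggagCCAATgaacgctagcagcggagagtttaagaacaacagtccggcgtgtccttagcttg
Mcm5: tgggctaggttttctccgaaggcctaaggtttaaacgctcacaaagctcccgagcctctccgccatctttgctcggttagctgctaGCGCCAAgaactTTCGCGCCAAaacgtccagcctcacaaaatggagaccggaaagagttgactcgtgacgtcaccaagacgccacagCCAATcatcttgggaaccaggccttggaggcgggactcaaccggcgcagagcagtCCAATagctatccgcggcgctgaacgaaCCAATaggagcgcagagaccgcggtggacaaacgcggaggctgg
Pcna: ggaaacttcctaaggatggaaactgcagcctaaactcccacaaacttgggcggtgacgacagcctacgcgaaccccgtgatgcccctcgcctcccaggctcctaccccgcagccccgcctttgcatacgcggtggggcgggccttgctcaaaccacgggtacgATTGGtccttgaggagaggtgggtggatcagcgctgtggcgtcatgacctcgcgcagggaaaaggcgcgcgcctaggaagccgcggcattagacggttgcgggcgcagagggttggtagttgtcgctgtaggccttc

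A window was at hand for 29 of the 34 genes, and Foxm1, Tpx2, Ccna2, Aurkb and Kif20a had none. A CHR motif stood in 16 of the 20 G2 and mitosis promoters (80%), in 1 of the 9 S phase promoters (11.1%) and in 19.2% of all 32851 RefSeq windows. CCAAT was in 18 of the 20 (90.0%), in 6 of the 9 (66.7%) and in 37.4% of all windows. CHR and CCAAT stood together in 80% of the G2 and mitosis promoters, in 11.1% of the S phase promoters and in 7.52% of all windows. E2F motifs ran the other way, in 4 of 20 (20%) and in 5 of 9 (55.6%), against 9.57% of all windows. Ccnb2 carried 2 CHR and 3 CCAAT motifs, Top2a 4 and 6, Cdc20 1 and 2, and none of these 3 had an E2F motif. Mki67 had all 3 kinds. Mcm5 had 3 E2F motifs, 2 of which overlap, and no CHR motif, and Pcna had a single CCAAT box. Among members not shown, Ccnb1 had no CHR motif and 1 E2F motif, and Cdk1 had 2 of each. Ccne1 had no motif of the 3 kinds. A match is a description of letters in the window and was not tied to any factor.

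The whole table passed simple checks. Total counts were between 45238735 and 68396846 per library, and no pair of libraries within a group agreed within sampling noise. The tissue labels held, since 12 sensory neuron markers summed to 8654 to 11820 CPM (counts scaled to library size) in the DRG libraries and to 6.13 to 46.0 CPM in the skin libraries. The 34 genes were well covered in skin, where the lowest count of any member in any library was 111, for Ccne1. In DRG it was 6, for Aurkb, so the rarer mitotic genes rest on few reads there.

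Without the model, control skin carried far more of the cell cycle RNA than control DRG. All 34 genes differed between these tissues, 33 of them higher in skin, with a median log2 difference of 3.11. Most genes differ between skin and ganglion, and in this comparison 83.3% of the 21998 genes tested were called (42% higher and 41.3% lower in skin) by edgeR's quasi-likelihood test at a Benjamini-Hochberg adjusted p under 0.05, the rule for every call below. The count of members is therefore read against that share, and the sizes follow. Ccnb1 (gene ID 268697, chr13:100778739-100786486), the cyclin that with the kinase Cdk1 (gene ID 12534, chr10:69335146-69352912) drives entry into mitosis, averaged 27.3 ± 11.9 CPM in control skin, against 1.06 ± 0.51 CPM in control DRG (SD, n = 6 each), the widest gap of the set at 24.9-fold. Bub1b, a spindle checkpoint kinase-like protein, was 23.7-fold higher in skin, Top2a, the topoisomerase that untangles sister chromosomes, 22.7-fold, and Aurkb, the kinase of the chromosomal passenger complex, 19.9-fold.

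The smallest gaps were those of Pcna, Aurka and Kif23. Pcna, the sliding clamp of DNA polymerases that also serves DNA repair, was 1.61-fold higher in skin, with 74.3 ± 14.2 CPM in skin of controls, against 44.9 ± 1.90 CPM in control DRG (SD, n = 6 each). Aurka, a spindle pole kinase, was 2.26-fold higher and Kif23, a kinesin of the midzone and of cytokinesis, 2.44-fold higher. Ccne1 (gene ID 12447, chr7:38097984-38107490), the cyclin that with CDK2 carries cells into S phase, was the exception. It was lower in skin, at 4.69 ± 2.49 CPM in control skin, against 7.39 ± 0.83 CPM in control DRG (SD, n = 6 each), with a log2 difference of -0.69 ± 0.25 (SE, edgeR adjusted p = 0.0153).

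**Figure D1:**
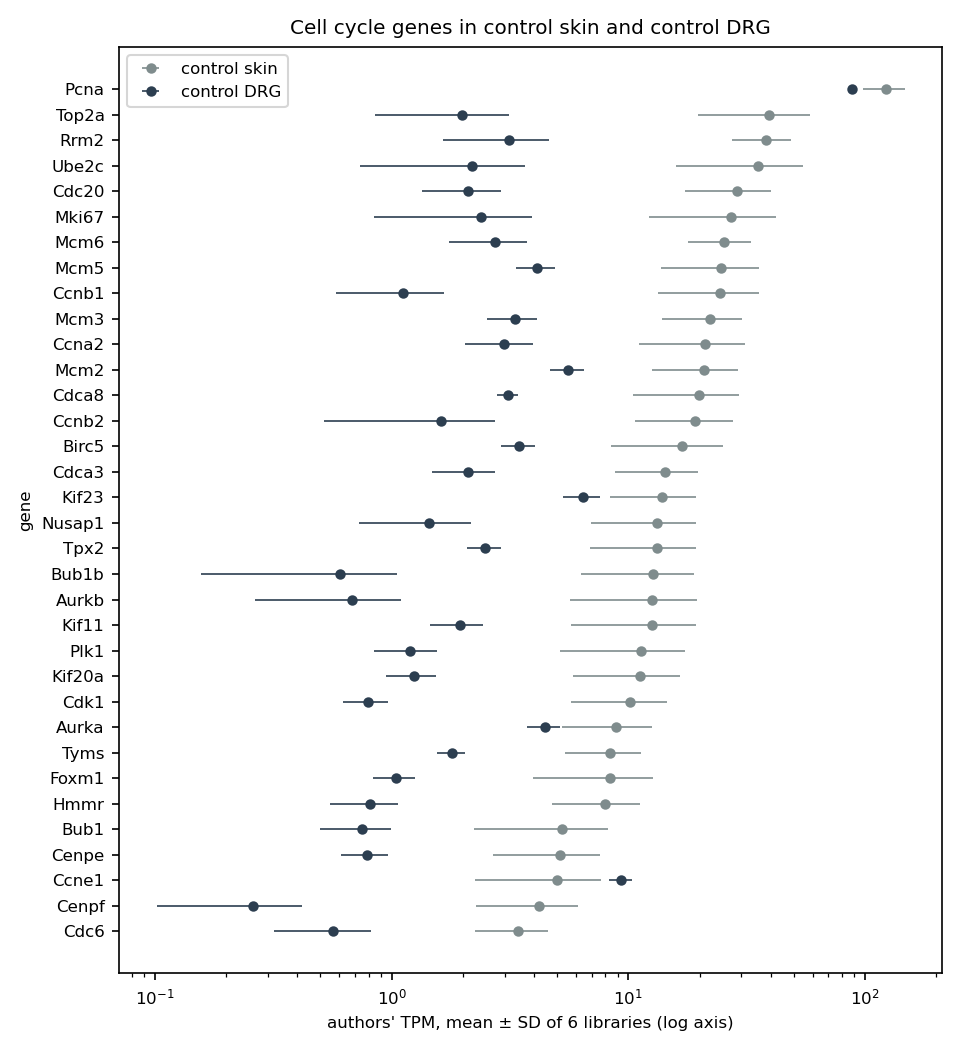
Mean level of each of the 34 genes in control skin (grey) and control DRG (dark blue), in the authors' TPM on a log axis, with bars of 1 SD over 6 libraries. Skin is to the right of DRG for every gene but Ccne1, and Pcna is the highest gene in both tissues.

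Per length, on the authors' TPM scale (which divides counts by transcript length), Pcna led both tissues, at 122.5 ± 24.3 TPM in control skin and 88.0 ± 3.35 TPM in control DRG (SD, n = 6 each). In control skin Top2a (39.1 ± 19.5 TPM), Rrm2 (38.1 ± 10.7 TPM), which encodes the small subunit of ribonucleotide reductase, and Ube2c (35.3 ± 19.4 TPM), the ubiquitin-conjugating enzyme of the anaphase-promoting complex, came next, and these 3 did not differ from each other beyond their spread. The lowest were Cenpf (4.19 ± 1.93 TPM), a kinetochore protein, and Cdc6 (3.41 ± 1.15 TPM), which loads the replicative helicase. In control DRG the order was another one. Ccne1 was second at 9.31 ± 1.01 TPM, then Kif23 at 6.45 ± 1.15 TPM and Mcm2, a subunit of that helicase, at 5.58 ± 0.92 TPM, while Cenpf closed the list at 0.26 ± 0.16 TPM.

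In skin, none of the 34 genes passed the test for a change in the model. The share of all genes called in this comparison was 19.9% (3892 of 19526, with 14.1% higher and 5.82% lower in model skin), and the members' count is read against that share. At an unadjusted p under 0.05 the count was 0 of 34 as well, against 35.4% of all genes, and DESeq2 also called 0. The fold changes leaned downward without passing the test. 32 of 34 were below 0, with a median log2 fold change of -0.29, against -0.02 over all genes, of which 47.1% were above 0. The 95% intervals of the 34 log2 fold changes reached from -1.25 to 0.90, so sizeable changes of single genes in either direction lay within the error.

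The genes of chromosome structure and exit from mitosis had the lowest median log2 fold change, -0.44. Mki67, which encodes the Ki-67 protein that coats mitotic chromosomes, had 74.1, 144.3, 67.6, 97.4, 58.9 and 84.9 CPM in model skin 1 to 6, against 81.2, 85.3, 159.4, 72.9, 123.0 and 251.4 CPM in control skin 1 to 6. Model skin 2 and control skin 3 and 6 stood high. The groups overlapped for all 34 genes, while of all genes 7.15% had every model library above, and 1.37% every model library below, all controls. The log2 fold change of Mki67 was -0.55 ± 0.32 (SE, edgeR adjusted p = 0.238). Top2a had 62.5, 113.6, 56.7, 88.4, 53.8 and 74.7 CPM in model skin, against 65.5, 65.3, 121.6, 62.6, 89.8 and 182.5 CPM in control skin. The same 3 libraries were high, and its log2 fold change was -0.38 ± 0.29 (SE, edgeR adjusted p = 0.367). Cdc20, which activates the anaphase-promoting complex, had the smallest adjusted p of the set, 0.153 by edgeR, at a log2 fold change of -0.50 ± 0.24 (SE). It averaged 17.4 ± 4.14 CPM in model skin and 24.6 ± 9.41 CPM in control skin (SD, n = 6 each), and its groups overlapped.

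Cyclins, kinases and regulators of G2 and mitosis had a median log2 fold change of -0.28. All 9 were below 0, between -0.47 and -0.17, and the smallest adjusted p by edgeR was 0.250. Ccnb1 had 16.8, 30.5, 13.7, 22.8, 13.1 and 20.9 CPM in model skin, against 20.01, 19.8, 33.3, 19.0, 22.5 and 49.0 CPM in control skin. Cdk1 had 17.1, 28.2, 12.5, 25.7, 11.1 and 18.6 CPM in model skin, against 16.3, 12.9, 27.6, 17.1, 17.1 and 36.5 CPM in control skin. For both, model skin 2 was the highest of its group and control skin 6 the highest of all 12. The 12 spindle, kinetochore and checkpoint genes were between -0.55 (Cenpf, adjusted p = 0.162 by edgeR) and -0.05 (Birc5, survivin, a subunit of the chromosomal passenger complex).

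The 9 S phase genes had a median of -0.15, and differences between the role groups were not tested. Mcm5, another helicase subunit, had 25.4, 47.0, 25.03, 37.1, 23.1 and 37.1 CPM in model skin, against 28.1, 24.5, 53.5, 30.2, 36.5 and 65.0 CPM in control skin. Pcna had 84.9, 92.4, 68.3, 89.4, 72.7 and 84.2 CPM in model skin, against 59.4, 65.3, 86.5, 68.5, 69.4 and 96.8 CPM in control skin. Ccne1 had 4.66, 8.48, 3.69, 6.67, 3.501 and 4.46 CPM in model skin, against 2.90, 2.34, 6.24, 3.63, 4.04 and 8.96 CPM in control skin. The groups overlapped in all 3, with model skin 2 and control skin 6 the highest of their groups. Pcna (log2 fold change 0.14 ± 0.13, SE) and Ccne1 (0.16 ± 0.34, SE) were the 2 members above 0, and neither passed (edgeR adjusted p = 0.450 and 0.769). The other 7, from Mcm6 (-0.05) to Tyms, thymidylate synthase (-0.31), were below it.

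**Figure D2:**
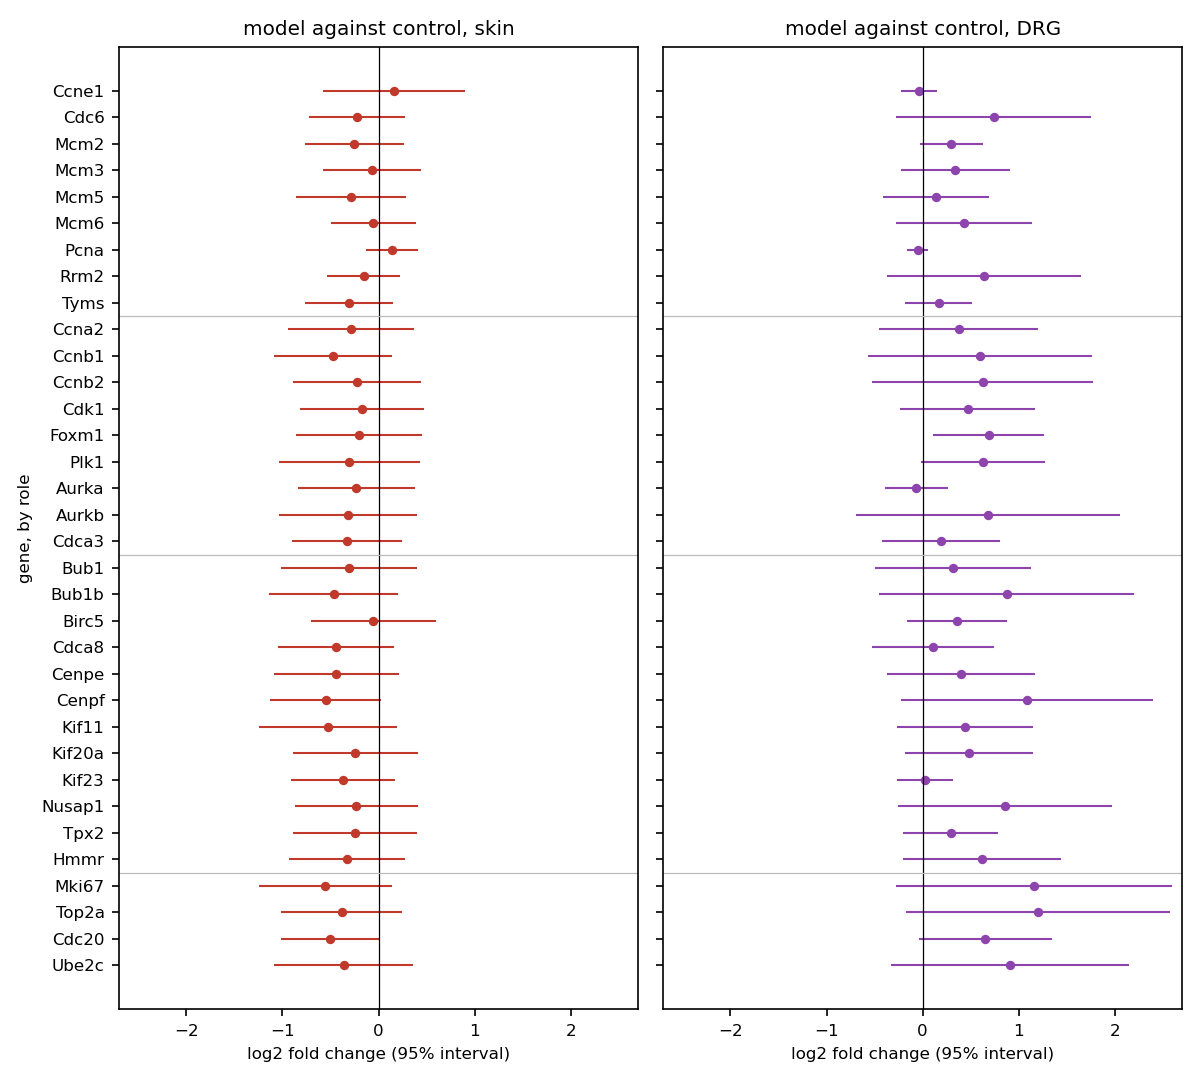
Log2 fold change of each gene, model against control, with its 95% interval, in skin (left panel) and DRG (right panel), with genes grouped by role from S phase at the top to exit from mitosis at the bottom. Points lie left of 0 for 32 genes in skin and right of 0 for 31 genes in DRG, and no gene passed the adjusted threshold in either tissue.

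Within each skin group the genes ranked the libraries alike. Model skin 2 was the highest of its group for 34 of 34 genes, while it was the highest for 21.8% of all genes tested. Model skin 5 was the lowest for 28. Control skin 6 was the highest of its group for 34 of 34, against 17.9% of all genes, and control skin 3 was the second highest for all 34. The 25 G2 and mitosis genes summed to 450.8, 781.3, 382.3, 585.3, 322.1 and 490.5 CPM in model skin 1 to 6, and to 451.9, 444.8, 827.5, 422.5, 587.5 and 1206 CPM in control skin 1 to 6. Without control skin 6 the median log2 fold change was -0.04 and 11 genes were above 0. Leaving out any other single library gave medians between -0.43 (without model skin 2) and -0.16 (without model skin 5). Without model skin 2, 33 of 34 genes were below 0. No gene was called in any of the fits that left out 1 library.

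Markers of several other cell types were called higher in model skin. All 13 monocyte and macrophage markers were called higher in model skin, at a median log2 fold change of 2.27, and they summed to 801.2 to 2428 CPM in model skin and to 221.5 to 593.0 CPM in control skin. All 8 muscle precursor markers were called higher as well (median 3.504), with sums of 49.9 to 147.4 CPM in model skin and 2.29 to 10.3 CPM in control skin. Of the 10 endothelial markers 9 were called higher (median 1.003), and their sums were 223.0 to 434.3 CPM in model skin and 138.1 to 209.9 CPM in control skin. Of the 8 fibroblast markers 4 were called higher (median 0.68), with sums of 9429 to 16610 CPM in model skin and 4633 to 9653 CPM in control skin. These counts stand beside the 14.1% of all genes that were called higher.

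Lymphocyte markers were highest in model skin 2. The 12 T cell markers summed to 34.2, 292.1, 27.6, 28.5, 49.2 and 26.7 CPM in model skin 1 to 6, against 15.2, 26.6, 15.15, 12.6, 11.5 and 10.3 CPM in control skin 1 to 6, and 7 of the 11 tested were called higher. The 8 B and plasma cell markers summed to 8.57, 214.9, 6.22, 5.66, 21.7 and 5.34 CPM in model skin, against 1.21, 2.13, 1.06, 1.28, 1.27 and 0.55 CPM in control skin, where Ms4a1 and Pax5 had medians under 0.1 CPM, and 5 of the 6 tested were called higher. Control skin 6, the highest control for the 34 genes, was the lowest of all 12 skin libraries for the summed macrophage, muscle precursor, endothelial, fibroblast, T cell and B and plasma cell markers. Control skin 3 was not apart from the other controls for T cell or for B and plasma cell markers.

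The 18 genes of the hair matrix and shaft summed to 5373, 30300, 23610, 1979, 10290 and 8898 CPM in model skin 1 to 6. Their sums were 37500, 1270, 59200, 37050, 56670 and 57710 CPM in control skin 1 to 6. Control skin 3, 5 and 6 were the highest. Model skin 2, the highest of its group for all 34 genes, was the highest of its group for hair genes too. Model skin 3 was the second highest of its group for hair genes and the second lowest for the G2 and mitosis sum. None of the 18 was called, at a median log2 fold change of -1.55. The 9 basal keratinocyte genes summed to 6997 to 15410 CPM in model skin, lowest in model skin 2, and to 9446 to 16410 CPM in control skin, lowest in control skin 6, and none was called. The part of these markers in the levels of the 34 genes was not tested.

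**Figure D3:**
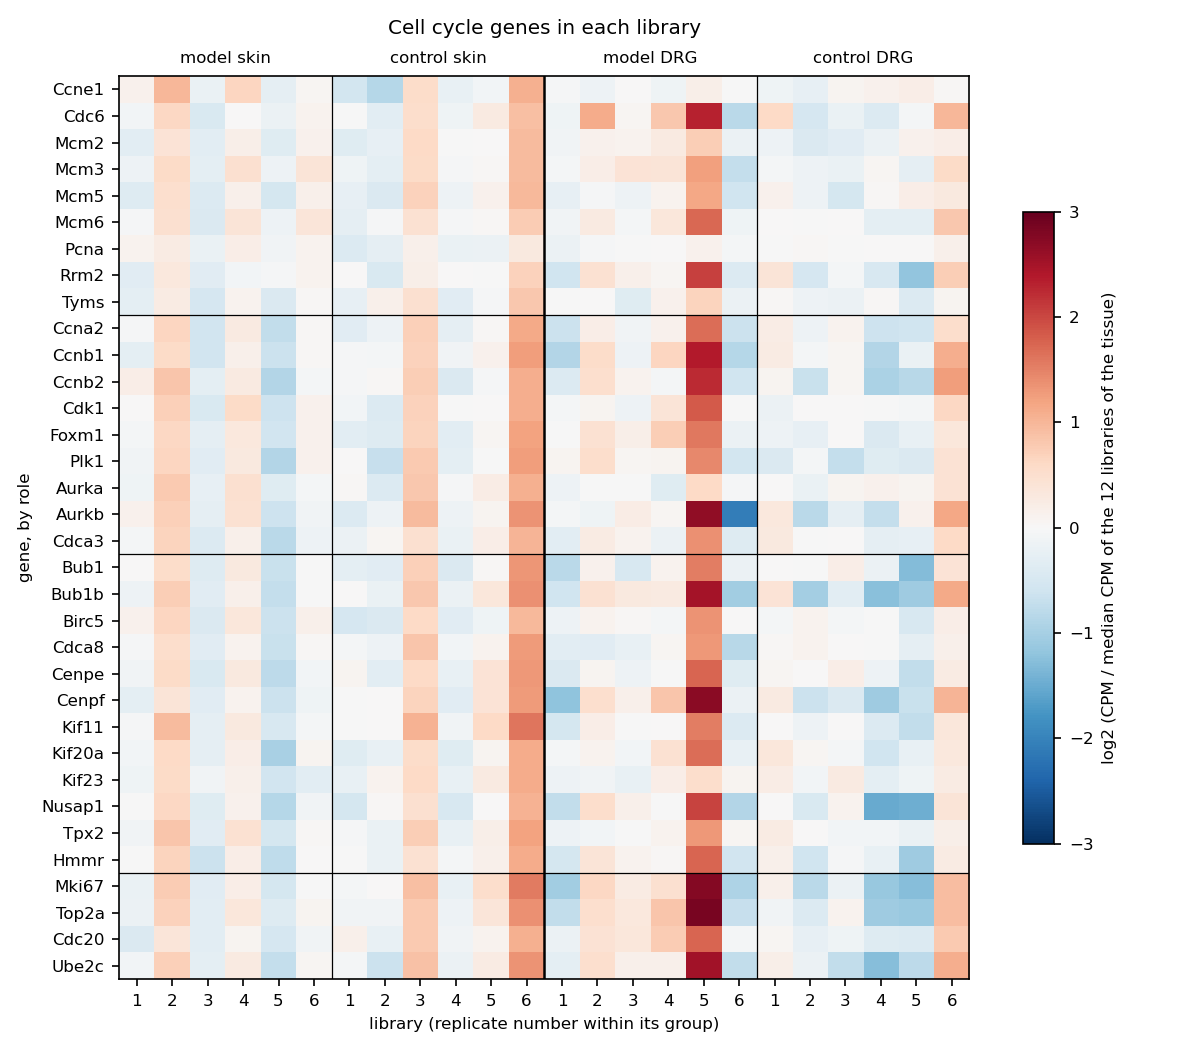
Level of each gene (rows, grouped by role) in each of the 24 libraries (columns, by group and replicate number), as log2 of its CPM over the median CPM of the 12 libraries of that tissue. Whole columns stand out in red, model skin 2 and control skin 3 and 6 in skin, and model DRG 5 and control DRG 6 in DRG.

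In DRG, none of the 34 genes passed the same test. The background was small, with 19 of 19509 genes called (0.0974%), all of them higher in model DRG. At an unadjusted p under 0.05 the count was 1 of 34, against 9.34% of all genes, and DESeq2 called 0 members. The fold changes leaned upward, opposite to skin. 31 of 34 were above 0, with a median log2 fold change of 0.45, against -0.01 over all genes, of which 45.6% were above 0. Model DRG 5 stood far above the rest for most of the set, and the values with and without it are given below.

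Mki67 had 5.17, 16.4, 12.8, 14.9, 72.2 and 5.66 CPM in model DRG 1 to 6, against 11.9, 6.11, 9.53, 4.88, 4.39 and 20.2 CPM in control DRG 1 to 6. Model DRG 5 was above all others, the rest of the model group lay within the range of the controls, and the next highest was control DRG 6. Its log2 fold change was 1.16 ± 0.66 (SE, edgeR adjusted p = 0.607), and 0.21 without model DRG 5. Top2a had 2.702, 6.38, 5.57, 7.98, 32.6 and 2.80 CPM in model DRG, against 4.18, 3.37, 4.81, 2.15, 2.09 and 8.60 CPM in control DRG. It had the largest log2 fold change of the set, 1.204 ± 0.63 (SE, edgeR adjusted p = 0.575), and 0.28 without model DRG 5.

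Ccnb1 had 0.51, 1.38, 0.85, 1.48, 4.95 and 0.53 CPM in model DRG, against 1.12, 0.91, 0.98, 0.51, 0.82 and 2.02 CPM in control DRG. Its log2 fold change was 0.60 ± 0.54 (SE, edgeR adjusted p = 0.748), and -0.16 without model DRG 5. Cdk1 had 1.28, 1.41, 1.202, 1.75, 4.78 and 1.33 CPM in model DRG, against 1.17, 1.34, 1.34, 1.32, 1.27 and 2.04 CPM in control DRG, so 11 of the 12 libraries lay between 1.17 and 2.04 CPM. Its log2 fold change was 0.47 (edgeR adjusted p = 0.672), and -0.02 without model DRG 5. Foxm1, the transcription factor of G2 and mitosis genes, was the 1 member with an unadjusted p under 0.05 (0.0228, edgeR adjusted p = 0.494). It had 1.97, 2.71, 2.23, 3.30, 5.99 and 1.77 CPM in model DRG, against 1.78, 1.68, 2.00, 1.47, 1.70 and 2.52 CPM in control DRG, and a log2 fold change of 0.69 ± 0.27 (SE), which was 0.37 without model DRG 5 (edgeR adjusted p = 0.674).

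Of the 9 S phase genes 7 had log2 fold changes above 0 and none passed, with a median of 0.30, against 0.60 for the 25 G2 and mitosis genes, and the difference between these medians was not tested. The highest were Cdc6 (0.74 ± 0.47, SE), Rrm2 (0.64 ± 0.46, SE) and Mcm6 (0.43 ± 0.33, SE), with edgeR adjusted p-values of 0.635, 0.684 and 0.699. Without model DRG 5 these 3 were at 0.19, 0.03 and -0.01. Mcm5 had 4.79, 5.58, 5.15, 6.12, 12.6 and 3.75 CPM in model DRG, against 6.25, 5.07, 3.94, 5.78, 6.52 and 6.97 CPM in control DRG, at a log2 fold change of 0.14 ± 0.26 (SE, edgeR adjusted p = 0.897), and -0.18 without model DRG 5. Pcna had 39.1, 42.6, 43.6, 44.1, 48.2 and 41.8 CPM in model DRG, against 43.7, 45.1, 43.5, 44.5, 44.1 and 48.6 CPM in control DRG. Ccne1 had 7.10, 6.55, 7.37, 6.65, 8.26 and 7.24 CPM in model DRG, against 6.69, 6.15, 7.69, 7.99, 8.38 and 7.43 CPM in control DRG. These last 2 were nearly level over the 12 libraries, and their log2 fold changes, -0.05 ± 0.05 and -0.04 ± 0.09 (SE), had the narrowest intervals of the set. Aurka was the other member below 0, at -0.07 ± 0.15 (SE).

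Model DRG 5 was above all 11 other DRG libraries for 32 of the 34 genes (94.1%), against 8.11% of all genes tested in DRG. Pcna and Ccne1 were the 2 that it did not lead. Set against the median of the other 11 libraries, its level ran from 1.10-fold for Pcna to 7.79-fold for Top2a, with a median ratio of 3.34, while the median ratio over all genes was 0.994. Ratios above 7 belonged to Bub1b (7.04), Cenpf (7.46), Mki67 (7.58) and Top2a. The 25 G2 and mitosis genes summed to 49.0, 80.04, 68.4, 80.3, 255.0 and 51.1 CPM in model DRG 1 to 6, against 71.5, 55.9, 66.5, 47.2, 45.1 and 99.0 CPM in control DRG 1 to 6. Control DRG 6 was the highest of its own group for 30 of 34 genes, against 15.6% of all genes.

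Markers of bone marrow blood cell precursors stood out in the same libraries. The 8 genes of that list, among them Mpo, Elane and Prtn3 of granulocyte precursors and Ngp, Ltf and Camp of later granules, summed to 21.4, 56.4, 67.8, 43.5, 399.8 and 18.9 CPM in model DRG 1 to 6, against 44.7, 21.3, 27.4, 21.9, 13.6 and 116.6 CPM in control DRG 1 to 6. The highest library of each group was the one highest for the cell cycle genes. Mpo alone had 1.67, 6.48, 8.43, 6.92, 50.2 and 1.70 CPM in model DRG, against 4.31, 1.29, 3.45, 2.21, 1.09 and 24.3 CPM in control DRG. None of the 8 was called in DRG, all 8 had log2 fold changes above 0 with a median of 1.18, and none of them was at 0. The 8 B and plasma cell markers summed to 44.2 CPM in model DRG 5 and to 6.34 to 12.3 CPM in the other model DRG libraries, against 4.90 to 11.2 CPM in control DRG. Endothelial markers stood apart in control DRG 6, where the 10 genes summed to 500.8 CPM. They summed to 191.6 to 353.6 CPM in the 6 model DRG libraries (244.3 CPM in model DRG 5), and to 189.6 to 248.9 CPM in the other 5 controls, and none was called. The part of these cells in the cell cycle RNA of the ganglia was not tested.

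**Figure D4:**
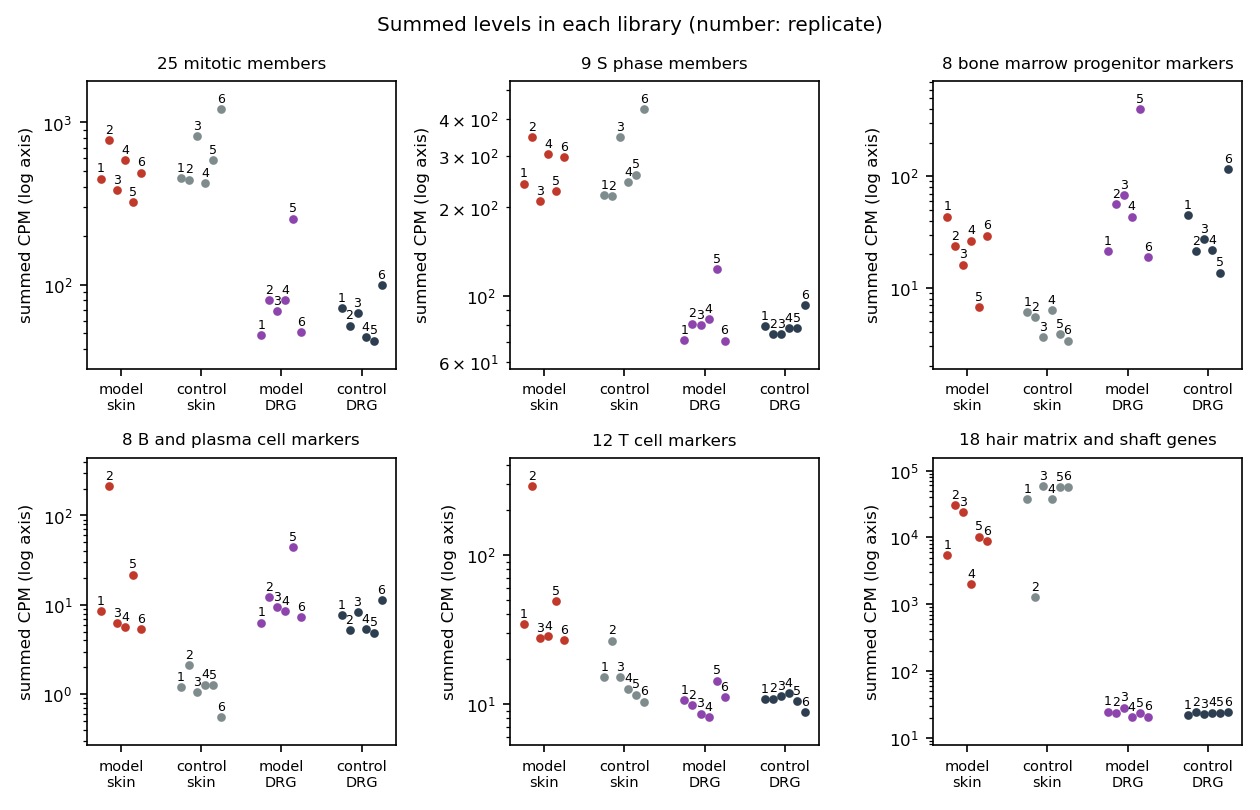
Summed CPM (log axis) in each library, numbered by replicate, of the 25 G2 and mitosis genes, the 9 S phase genes and 4 marker lists, with model left of control in each tissue. Model DRG 5 and control DRG 6 are the highest of their groups for the mitotic genes and for the bone marrow markers. Model skin 2 has the highest T cell and B and plasma cell sums. It also has the highest hair gene and mitotic sums of its group.

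Without model DRG 5 the fold changes in DRG no longer leaned upward. The log2 fold changes split evenly, 17 above and 17 below 0, with a median of 0.01. Model DRG 5 was the highest of its group for all 34 genes, so leaving it out could only lower that group's level. Leaving out any other single library gave medians between 0.394 (without control DRG 4) and 0.565 (without control DRG 6), with 30 or 31 genes above 0. Without both model DRG 5 and control DRG 6, a choice made after their marker levels were seen, 24 were above 0, with a median of 0.12, and none was called.

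**Figure D5:**
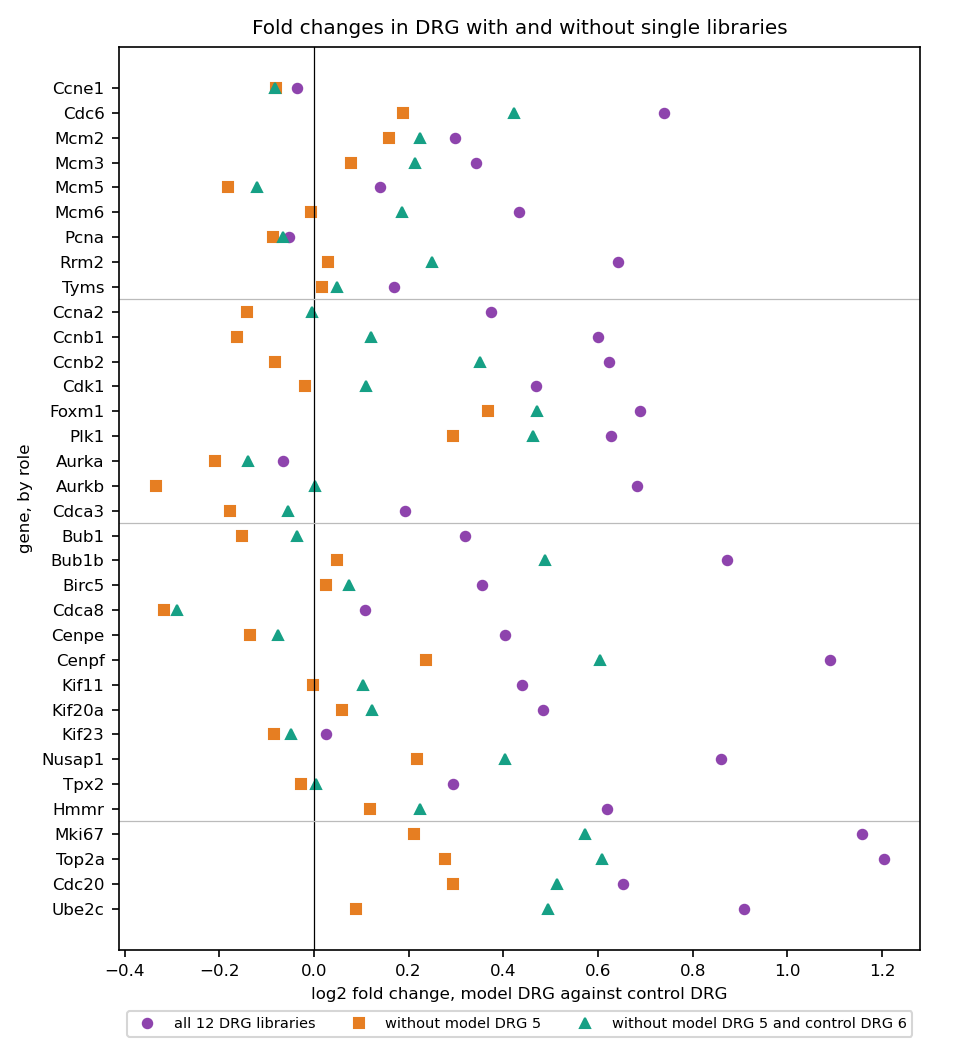
Log2 fold change of each gene, model DRG against control DRG, from all 12 libraries (circles), without model DRG 5 (squares) and without model DRG 5 and control DRG 6 (triangles). The circles lie to the right of the squares for all 34 genes, and the squares are spread around 0. Model DRG 5 was the highest of its group for every gene, so leaving it out lowers that group's level.

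The model's effect in skin was also set against its effect in DRG in a single fit of all 24 libraries. The difference, skin effect minus DRG effect, was below 0 for 32 of 34 genes, with a median of -0.80 on the log2 scale, against -0.04 over all genes. Of the 34, Cdc20 was called, at -1.197 ± 0.42 (SE, edgeR adjusted p = 0.0499), while 17.1% of the 17251 genes tested were called (10.6% higher, 6.43% lower). Cdc20 had 14.1, 24.1, 15.1, 20.1, 13.4 and 17.52 CPM in model skin, against 21.1, 16.2, 32.5, 17.7, 20.4 and 39.8 CPM in control skin. In the ganglia it had 1.34, 2.08, 1.93, 2.59, 5.09 and 1.47 CPM in model DRG, against 1.58, 1.29, 1.41, 1.16, 1.14 and 2.63 CPM in control DRG. Its call stood at the threshold. It was lost with upper-quartile factors, without a filter on low counts, with a filter of 1 CPM in 6 libraries and with limma on TPM at either pseudocount, with adjusted p-values between 0.0558 and 0.101, and 0.0222 by DESeq2 was the lowest of any alternative. The call held when model skin 2, control skin 2, control skin 4, model DRG 1, model DRG 6 or control DRG 6 was left out. It was lost on leaving out any other single library, with adjusted p-values between 0.0536 and 0.106, the highest without model DRG 5 (log2 difference -0.84). Without both model DRG 5 and control DRG 6, a choice made after seeing the data, Cdc20 was called (-1.06, edgeR adjusted p = 0.0359). Mki67 (-1.76 ± 0.73, SE), Cenpf (-1.68 ± 0.66, SE) and Top2a (-1.63 ± 0.69, SE) had larger differences and wider errors, and missed the threshold (edgeR adjusted p = 0.0994, 0.0820 and 0.104). In all, 6 of 34 had an unadjusted p under 0.05, against 32.7% of all genes.

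Other genes of the cycle were taken from lists by function. The lists were made with earlier results of these data known, so their counts are descriptive. Of 36 further genes of DNA replication and 50 further genes of mitosis, none was called in skin or in DRG, beside 19.9% and 0.0974% of all genes. The mitosis list had 46 of 50 log2 fold changes below 0 in skin (median -0.27) and 46 of 50 above 0 in DRG (median 0.39). The lean in skin was smaller without control skin 6, and that in DRG was smaller without model DRG 5. For the 34 members, leaving out model skin 2 or control DRG 6 gave larger leans instead (medians of -0.428 in skin and 0.565 in DRG). Leaving out the highest library of a group can only lower that group's level, and the cause of the leans was not tested. Without control skin 6 the list had 27 of 50 below 0 in skin (median -0.04), and without model DRG 5 it had 30 of 50 above 0 in DRG (median 0.04). Model DRG 5 had a summed level of 378.1 CPM for these 50 genes, where the rest of its group had 228.0 to 256.9 CPM and the controls 232.0 to 275.7 CPM. The replication list had medians of -0.09 in skin and 0.03 in DRG. The smallest adjusted p-values by edgeR were 0.129 in skin, for Chaf1b, a subunit of chromatin assembly factor 1, and 0.463 in DRG, for Prc1, which bundles midzone microtubules. Between the tissues 1 of the 50 mitosis genes was called, and it was lower (2.0%), beside 6.43% of all genes called lower. This was Ckap2, a spindle protein, at -0.75 ± 0.24 (SE, edgeR adjusted p = 0.0339). Its call was lost on leaving out any of 11 of the 24 libraries, model DRG 5 among them (adjusted p = 0.0619), and under 5 of 9 other processing settings.

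None of the 18 regulators of the E2F, RB and DREAM families was called within a tissue. In skin the nearest was E2f2, at 30.5 ± 8.09 CPM in model skin and 47.6 ± 14.5 CPM in control skin (SD, n = 6 each; edgeR adjusted p = 0.0600). Between the tissues 3 of the 18 (16.7%) were called, beside 17.1% of all genes, and all 3 were lower, namely E2f2 (-1.26), Mybl2 (-1.27), the B-Myb factor of mitotic genes, and Tfdp2 (-0.38), a partner of E2F proteins. E2f2 had 4.35, 6.94, 5.74, 5.005, 15.6 and 4.17 CPM in model DRG, against 4.71, 3.94, 4.39, 4.86, 3.82 and 6.53 CPM in control DRG. Model DRG 5 again stood far above the rest, and without it the difference for E2f2 was -0.85 and the call was lost (edgeR adjusted p = 0.0539). Leaving out single libraries ended the call for 9 of 24 libraries in E2f2, for 16 in Mybl2 and for 6 in Tfdp2, with adjusted p-values up to 0.0628, 0.0876 and 0.0725. Of 9 other processing settings, 3 ended the call of E2f2, 5 that of Mybl2 and 4 that of Tfdp2.

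In skin, 14.1% of all genes were called higher and 5.82% lower. Among the G1 cyclins and kinases the share called higher was below that of all genes. Among the CDK inhibitors and p53 targets it was above that of all genes, on few genes. Of 13 G1 cyclins and kinases, 1 rose (7.69%). This was Ccnd3, cyclin D3, with 63.8, 58.9, 51.1, 62.1, 45.2 and 51.7 CPM in model skin, against 39.3, 36.6, 36.6, 37.8, 36.9 and 32.4 CPM in control skin. All 6 model libraries were above all 6 controls, as for 7.15% of all genes tested in skin. The log2 fold change was 0.60 ± 0.09 (SE, edgeR adjusted p = 0.000784). Of 19 CDK inhibitors and p53 targets, 4 rose (21.1%) and 1 fell (5.26%) in skin. Cdkn1c, the inhibitor p57, had 19.3, 16.1, 14.6, 28.1, 15.9 and 13.7 CPM in model skin, against 8.04, 10.4, 7.21, 7.42, 8.43 and 7.04 CPM in control skin. Its groups did not overlap, and its log2 fold change was 1.15 ± 0.18 (SE, edgeR adjusted p = 0.00101). Cdkn2c, the inhibitor p18, rose by 0.90 ± 0.29 on the log2 scale (SE, edgeR adjusted p = 0.0450), and Eda2r, a receptor of the TNF family induced by p53, by 0.79 ± 0.24 (SE, edgeR adjusted p = 0.0398). Cdkn2a, which encodes the inhibitor p16, rose as well but stayed low, with 0.46 ± 0.21 CPM in model skin and 0.19 ± 0.09 CPM in control skin (SD, n = 6 each; edgeR adjusted p = 0.0382). Sesn2, a stress-induced sestrin, fell by 0.50 ± 0.14 on the log2 scale (SE, edgeR adjusted p = 0.0251). The calls of Ccnd3 and Cdkn1c held on leaving out each of the 12 skin libraries. Those of Cdkn2c and Eda2r were each lost for 8 of the 12, that of Cdkn2a for 7 and that of Sesn2 for 5, with adjusted p-values up to 0.0896, 0.0894, 0.0888 and 0.0803. Other processing settings ended the call of Cdkn2c in 2 of 9, of Eda2r in 1 of 9, of Cdkn2a in 3 of 8 and of Sesn2 in 2 of 9. The part of the other cells' markers in these genes was not tested.

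In DRG, 1 of those 19 rose, beside 0.0974% of all genes, and no gene of the other 4 lists did. Gadd45a, a p53 target induced by DNA damage and by nerve injury, had 19.5, 19.1, 21.0, 16.7, 22.5 and 20.03 CPM in model DRG, against 11.4, 12.5, 11.2, 13.0, 12.7 and 12.2 CPM in control DRG. The 6 model libraries lay above all 6 controls, as for 0.369% of all genes, and model DRG 5 was not apart from the rest of its group. The log2 fold change was 0.70 ± 0.07 (SE, edgeR adjusted p = 0.000547), and the call held on leaving out each of the 12 DRG libraries. In skin it had 19.9 ± 3.08 CPM in model skin and 17.7 ± 3.48 CPM in control skin (SD, n = 6 each). The effect in skin minus that in DRG was -0.58 ± 0.16 (SE, edgeR adjusted p = 0.0178). For this difference 1 of the 19 was called higher (5.26%) and 3 lower (15.8%), beside 10.6% and 6.43% of all genes. The others were Btg2 (-0.70), Sesn2 (-0.65) and Cdkn2a (1.44), with edgeR adjusted p-values of 0.0229, 0.0446 and 0.0306. Leaving out single libraries ended these calls for 2, 15 and 4 of 24 libraries. Other processing settings ended the call of Btg2 in 0 of 9, of Sesn2 in 4 of 9 and of Cdkn2a in 4 of 8.

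Pcna, Tyms and Ccnb1 have pseudogene copies in the deposited table. How reads shared with such copies were counted was not given in the sources used, so the levels of these 3 genes are less certain than those of the rest.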

How the data were processed

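Polyadenylated RNA of mouse skin and DRG was sequenced in 24 libraries, in 4 groups of 6 as the titles give them. Per the submitters' processing notes, the tools were HISAT2 2.1.0, StringTie 2.1.3b, Trimmomatic and bcl2fastq 2.20.0 and the genome was GRCm38 (mm10), with no role stated for any of them. The authors deposited a single table that holds, per gene and library and per its file headers, a read count, an FPKM value (not used here) and a TPM value. Whole-number counts were tested, and the authors' TPM was used for levels between genes and for an alternative test.

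CPM was computed from the counts with TMM library sizes. The 34 genes and the lists were chosen with earlier results of these data known. Genes passing edgeR's filterByExpr were fitted in each tissue with edgeR 4.0.16 (robust glmQLFit, glmQLFTest, two-sided, R 4.3.3), with Benjamini-Hochberg adjustment over all genes tested and calls at an adjusted p under 0.05. Differences between tissues came from a fit of all 24 libraries. Intervals are 95% intervals of the fit. Alternatives were other scaling factors, other filters, DESeq2 1.42.0, limma 3.58.1 on log2(TPM + 1) and log2(TPM + 0.1), all libraries in 1 fit, a replicate block and leaving out each library; for the genes of the lists these were added after seeing the data. The scripts were tested on simulated data. Motifs were searched in RefSeq promoter windows.

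Values in every library are given for Mki67, Top2a, Ccnb1, Cdk1, Mcm5, Pcna and Ccne1, for called members and, from the lists, for some genes with the smallest p. Foxm1 and the values of single list genes in every library were added after their results were seen.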

Additional observations from a re-analysis of the deposited data

Results flagged for a closer look

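A library was picked out where the gap between the highest or the lowest library of a group of 6 and its nearest neighbour, divided by the range of the group, passed Dixon's 95% critical value of 0.625. Chance does this in about 1 in 20 groups, and the 34 genes gave 136 groups. Model DRG 5 was picked out for 28 of the 34 genes and control DRG 6 for 6, and no skin library for any.

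In model DRG 5 the CPM values were as follows. S phase genes had 3.84 CPM (Cdc6), 12.6 CPM (Mcm5), 11 CPM (Mcm6) and 11.8 CPM (Rrm2). Cyclins, kinases and regulators of mitosis had 13.3 CPM (Ccna2), 4.95 CPM (Ccnb1), 4.66 CPM (Ccnb2), 4.78 CPM (Cdk1), 5.99 CPM (Foxm1), 3.43 CPM (Plk1), 4.99 CPM (Aurka), 3.39 CPM (Aurkb) and 3.91 CPM (Cdca3). Spindle, kinetochore and checkpoint genes had 3.97 CPM (Bub1), 5.36 CPM (Bub1b), 5.89 CPM (Birc5), 5.05 CPM (Cdca8), 8.49 CPM (Cenpe), 8.16 CPM (Cenpf), 12 CPM (Kif11), 5.79 CPM (Kif20a), 8.75 CPM (Nusap1), 10.1 CPM (Tpx2) and 4.91 CPM (Hmmr). Genes of chromosome structure and exit from mitosis had 72.2 CPM (Mki67), 32.6 CPM (Top2a), 5.09 CPM (Cdc20) and 5.03 CPM (Ube2c).

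In control DRG 6 the values were 5.95 CPM for Mcm3, 5.78 CPM for Mcm6, 48.6 CPM for Pcna, 2.35 CPM for Ccnb2, 2.04 CPM for Cdk1 and 2.64 CPM for Cdc20. The summed bone marrow markers stood apart in the same libraries, at 400 CPM in model DRG 5 and 117 CPM in control DRG 6. The summed B and plasma cell markers stood apart in model DRG 5 (44.2 CPM) and in model skin 2 (215 CPM). The summed T cell markers stood apart in model skin 2 (292 CPM) and in control skin 2 (26.6 CPM). The summed endothelial markers stood apart in control DRG 6 (501 CPM). The summed further genes of mitosis (378 CPM) and of DNA replication (371 CPM) stood apart in model DRG 5, and the E2F, RB and DREAM regulators in model skin 2 (537 CPM). Summed muscle precursor markers stood apart in control skin 2 (10.3 CPM) and control DRG 5 (12.4 CPM), fibroblast markers in model skin 4 (16600 CPM) and satellite glia markers in model DRG 6, which was low (3360 CPM). The genes of a group share their library, so these values are not independent of each other. The part of these cells in the result was not tested.

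For Cdc20 the model's effects in both tissues were called different, with a skin effect minus DRG effect of -1.2 on the log2 scale, by the edgeR test of that difference (adjusted p = 0.0499). The call lay at the threshold and was lost with the replicate block (adjusted p = 0.0545), under 5 other settings and on leaving out most single libraries (0.106 without model DRG 5).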

How the results depend on the processing

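The counts of 0 members called in skin and in DRG, and of 34 called between the control tissues (33 higher in skin), were the same under every alternative run. Between the tissues' effects, 1 member was called, and 0 were called with upper-quartile factors, without a filter, with a filter of 1 CPM in 6 libraries, with limma on log2(TPM + 1), with limma on log2(TPM + 0.1) and with the replicate block, while DESeq2 called 2 (Cdc20 and Cenpf); leaving out each library in turn gave 0 to 2. The construction of these alternatives does not show which step moved Cdc20 over the threshold, and the cause was not tested. Its adjusted p ran from 0.0222 (DESeq2) to 0.106 (without model DRG 5).

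No called value changed sign under any alternative run, while uncalled DRG fold changes did, as given above for leaving out model DRG 5. Same-numbered model and control libraries of a tissue correlated between -0.556 and 0.313 in their deviations from the group means. Skin and DRG libraries of the same group and number correlated between -0.184 (model 5) and 0.116 (control 2). Not every library correlated best with its own number, so the numbers were not taken as pairs. No label states whether such skin and DRG libraries came from the same mice. The main fit of all 24 libraries treated them as independent. With the replicate block the count of all genes called in DRG was 6, against 19, and the calls of Gadd45a in DRG (adjusted p = 0.0557) and of its difference between tissues (0.0537), of Cdkn2c (0.127) and Eda2r (0.0677) in skin and of Tfdp2 (0.0668), Ckap2 (0.0722) and Mybl2 (0.0939) between tissues were lost. That count was 136 by DESeq2, 12 with the 1 CPM filter, 32 with all libraries in 1 fit, 12 without model DRG 5 and control DRG 6 (added after seeing the data) and 11 to 36 on leaving out single libraries. In skin the count of all genes called was 3892, 6820 with all libraries in 1 fit (3416 higher and 3404 lower, against 2755 and 1137) and 2564 to 6278 on leaving out single libraries. For the difference it was 2942, and 2229 to 4646 on leaving out single libraries. Depth limits the rarer mitotic genes in DRG, where Aurkb had as few as 6 reads.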
